A study of Mus musculus with 43 samples.

Results

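The 10 genes described here are mouse genes known for their expression at the 2-cell stage of the embryo: Zscan4c, Zscan4d, Zscan4f, Tcstv1, Tcstv3, AF067063, Zfp352, Usp17la, Usp17lb and Usp17le. They were chosen by symbol from expression tables of 46683 symbols, and no member's symbol occurred more than once in a table. All 10 were listed in 7 of the 8 tables, and 5 (Zscan4f, Zfp352, Usp17la, Usp17lb and Usp17le) in the table of the Ddx18 knockdown in embryonic stem cells (ESCs), which holds 4769 genes; the other 5 were not analysed there.

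The series asks what DDX18, a nucleolar RNA helicase, does for ribosomal DNA, its chromatin and the identity of ESCs. It comprises 43 samples, of which 37 are RNA-seq libraries made from mRNA of ESCs or of E3.5 embryos. The ESCs are CJ9 cells of strain 129S1/SVImJ in serum with LIF. Knockdown of Ddx18 was compared with controls in unmodified, p53 KO and EZH2 KO ESCs, with 2 libraries per group. The knockdown libraries are numbered KD1 and KD2, and the labels do not say whether these are separate reagents or repeats. E3.5 embryos, from pregnant DDX18 heterozygous mice of strain C57/B6, gave 2 wild-type and 2 DDX18 KO libraries, and the labels do not give the number of embryos per library. ESCs were given actinomycin D (ActD) at 0 (3 libraries), 5 (2 libraries) or 10 ng/ml (2 libraries), and p53 KO ESCs were given 0 or 10 ng/ml (2 libraries each). The source label of these last 4 libraries names CJ9 cells and only their titles name the p53 KO. CX-5461 was given at 0 or 1 µM (3 libraries each) and CHX (cycloheximide) at 0 or 10 µM (2 libraries each). How long each agent was given, and the alleles and clones behind the knockouts, are not given in the sources used here.

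In the mouse embryo the 2-cell stage is when the zygotic genome is activated, and a small, changing fraction of cells in an ESC culture passes through a state with the same transcripts. The transcription factor DUX binds and activates many of these genes, and the Zscan4, Tcstv and Usp17l genes lie in clusters of near-identical copies. ActD at low doses and CX-5461 both inhibit transcription of ribosomal DNA by RNA polymerase I, while CHX blocks protein synthesis.

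By role the members fall into 4 sets. The Zscan4 genes encode SCAN-domain zinc-finger proteins known for maintaining telomeres in ESCs. They lie on chromosome 7 in mm10, the coordinates of the expression tables, with Zscan4c at chr7:11005722-11010547, Zscan4d at chr7:11161374-11166182 and Zscan4f at chr7:11397915-11402741. Tcstv1 (chr13:119893388-119894785) and Tcstv3 (chr13:120317567-120318076), known for a role in telomere length, share a cluster with AF067063 (chr13:119827961-119830216). Zfp352 (chr4:90218820-90225702) encodes a zinc-finger protein. The Usp17l genes encode deubiquitinating enzymes and sit together on chromosome 7, with Usp17la at chr7:104857009-104862667, Usp17lb at chr7:104840257-104842603 and Usp17le at chr7:104768160-104777470. Reads of near-identical copies can be divided between them in a way the tables do not show, so the split among Zscan4c, Zscan4d and Zscan4f, among the Tcstv genes or among the Usp17l genes is uncertain and sums over all listed copies are given beside them.

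The 3 Zscan4 promoters below show how alike the copies are. Sequences are from RefSeq on build GRCm38.p6, read 5′ to 3′ in the direction of the gene. Capitals mark TGATTCAA, only the start of the known DUX site, and TATAAAA, a core promoter motif. The full DUX site was also searched and was found in none of these 3 promoters, while 11 of 32851 mouse promoters hold it (0.0335%). The windows are chr7:11005551-11005745 on the plus strand for Zscan4c, chr7:11166148-11166353 on the minus strand for Zscan4d and chr7:11397744-11397915 on the plus strand for Zscan4f.
Zscan4c: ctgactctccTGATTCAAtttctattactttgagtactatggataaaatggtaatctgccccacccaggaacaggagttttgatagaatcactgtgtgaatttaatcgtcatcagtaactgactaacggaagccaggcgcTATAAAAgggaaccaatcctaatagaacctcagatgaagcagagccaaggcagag
Zscan4d: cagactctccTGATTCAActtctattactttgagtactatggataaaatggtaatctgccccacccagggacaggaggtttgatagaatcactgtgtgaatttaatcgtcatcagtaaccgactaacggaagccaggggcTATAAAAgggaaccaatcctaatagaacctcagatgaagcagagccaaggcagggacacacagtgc
Zscan4f: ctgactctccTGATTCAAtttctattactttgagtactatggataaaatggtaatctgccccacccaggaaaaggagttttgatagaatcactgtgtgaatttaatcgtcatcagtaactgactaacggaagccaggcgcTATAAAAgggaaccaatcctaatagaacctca
Over their wider windows Zscan4c and Zscan4f were identical at 275 of 277 aligned bases (99.3%), Zscan4c and Zscan4d at 281 of 289 (97.2%) and Zscan4d and Zscan4f at 259 of 266 (97.4%). Promoter windows of 250 bases before to 50 after the start were found for 6 of the 10 members. TGATTCAA begins at base -184 from the annotated start of Zscan4c, -195 from that of Zscan4d and -161 from that of Zscan4f. It was searched on both strands, its letters were chosen after reading these promoters, and 191 of 32851 mouse promoters hold it (0.581%). The windows of Zfp352, of the Usp17l genes with a sequence and of the related copy Zscan4b do not hold these letters. Those windows do not hold the full DUX site either. TATAAAA begins at base -54 in Zscan4c, -65 in Zscan4d and -31 in Zscan4f and in Usp17lb, and 1801 promoters hold it (5.48%).

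Read totals were deposited for 19 libraries, ranging from 7112852 to 22983179 mapped reads; the depth of the other 18 is unknown. Values are FPKM (fragments scaled to transcript length and library size), so levels can be compared between genes, and the tables were normalized separately. Changes and their standard errors (SE) are differences of log2(FPKM + 1), a scale that shrinks the changes of low genes. A gene rose or fell where limma gave an adjusted p under 0.05 over all genes tested; genes had to reach 1 FPKM in a number of libraries equal to the smallest group of the table. Such p-values reflect the spread among libraries, which may be technical, and an exact two-sided permutation test could not go below 0.333 with 2 libraries against 2, or 0.1 with 3 against 2 or 3 against 3. Ddx18 checked the labels. It stood at 84.6 and 89.1 FPKM in control and 9.94 and 8.52 in knockdown ESCs, at 82.5 and 89.4 against 15.5 and 17.5 in EZH2 KO ESCs, at 36.9 and 49.7 against 3.08 and 3.86 in p53 KO ESCs, and at 11.04 and 21.99 against 2.97 and 2.86 in embryos. In EZH2 KO libraries Ezh2 stood at 2.76 to 4.12 FPKM, against 33.3 to 56.3 in the knockdown table of unmodified ESCs. Trp53 RNA was still listed at 91.5 to 259 FPKM in p53 KO libraries, which the labels do not explain. All 8 stem cell markers had an FPKM of at least 1 in every ESC library of the 6 complete ESC tables. In bulk RNA, more cells of a type cannot be told apart from more RNA per cell.

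Of the comparisons made, CX-5461 gave the largest fold differences in the family sums. The summed FPKM of all listed Zscan4 copies went from 4.76 ± 0.523 to 76.6 ± 0.747 (SD, n = 3 per group), of the Tcstv copies from 0.504 ± 0.186 to 32.2 ± 3.10 and of the Usp17l copies from 0.719 ± 0.284 to 31.1 ± 1.58. Those are 16.1-fold, 64.0-fold and 43.3-fold differences of the means, and every treated library lay above every untreated one. The Tcstv sum also holds 2 copies that are not members. With CX-5461 AF067061 stood at 14.5, 13.4 and 14.6 FPKM and BC147527 at 1.89, 6.06 and 5.04. With the copies of a family collapsed into 1 value, limma gave adjusted p = 1.7e-07, 3.9e-07 and 6.6e-07. The Tcstv and Usp17l sums passed the filter only through the treated libraries, so their p-values are no support in themselves.

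Gene by gene, 8 of the 8 members tested rose with CX-5461, where 32.9% of all genes tested rose. All 8 passed the filter only through the treated libraries, so their count is no support in itself. Zscan4c stood at 1.11, 1.13 and 0.846 FPKM untreated and at 16.7, 16.8 and 17.4 treated (log2 change 3.15, SE 0.09, adjusted p = 5.4e-07). Zscan4d stood at 0.495, 0.766 and 0.692 FPKM untreated and at 8.84, 8.61 and 7.65 treated (log2 change 2.51). Zscan4f stood at 1.92, 0.860 and 1.09 FPKM untreated and at 21.1, 22.5 and 19.5 treated (log2 change 3.29). The untreated libraries of each Zscan4 gene were all below 2 FPKM, and the treated ones never overlapped them.

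The Tcstv genes were at or next to 0 without CX-5461. Tcstv3 was listed at 0 in 2 untreated libraries and at 0.223 FPKM in the third, and at 9.01, 8.22 and 10.6 FPKM in the treated ones (log2 change 3.26, adjusted p = 1.8e-06). Tcstv1 stood at 0, 0.0917 and 0.0991 FPKM untreated and at 3.70, 3.72 and 5.24 treated (log2 change 2.28, adjusted p = 8.2e-06). Their neighbour AF067063 was listed at 0 in all untreated libraries and at 0.540, 0 and 0.204 FPKM in the treated ones, too low to be tested. Zfp352 was likewise not tested, at 0 in all untreated libraries and at 0.909, 0.732 and 0.373 FPKM with the drug, so its groups did not overlap although no treated library reached 1 FPKM.

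Among the deubiquitinase genes Usp17le had the highest level with CX-5461, at 11.6, 12.3 and 11.7 FPKM, against 0.409, 0.214 and 0.0926 untreated (log2 change 3.38, SE 0.11, adjusted p = 9.1e-07). Usp17la stood at 0.0296, 0.0988 and 0.0267 FPKM untreated and at 5.69, 5.23 and 4.67 treated (log2 change 2.56). Usp17lb stood at 0.303, 0.101 and 0.164 FPKM untreated and at 5.13, 6.20 and 7.01 treated (log2 change 2.58). All 3 were under 1 FPKM in every untreated library.

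**Figure D1:**
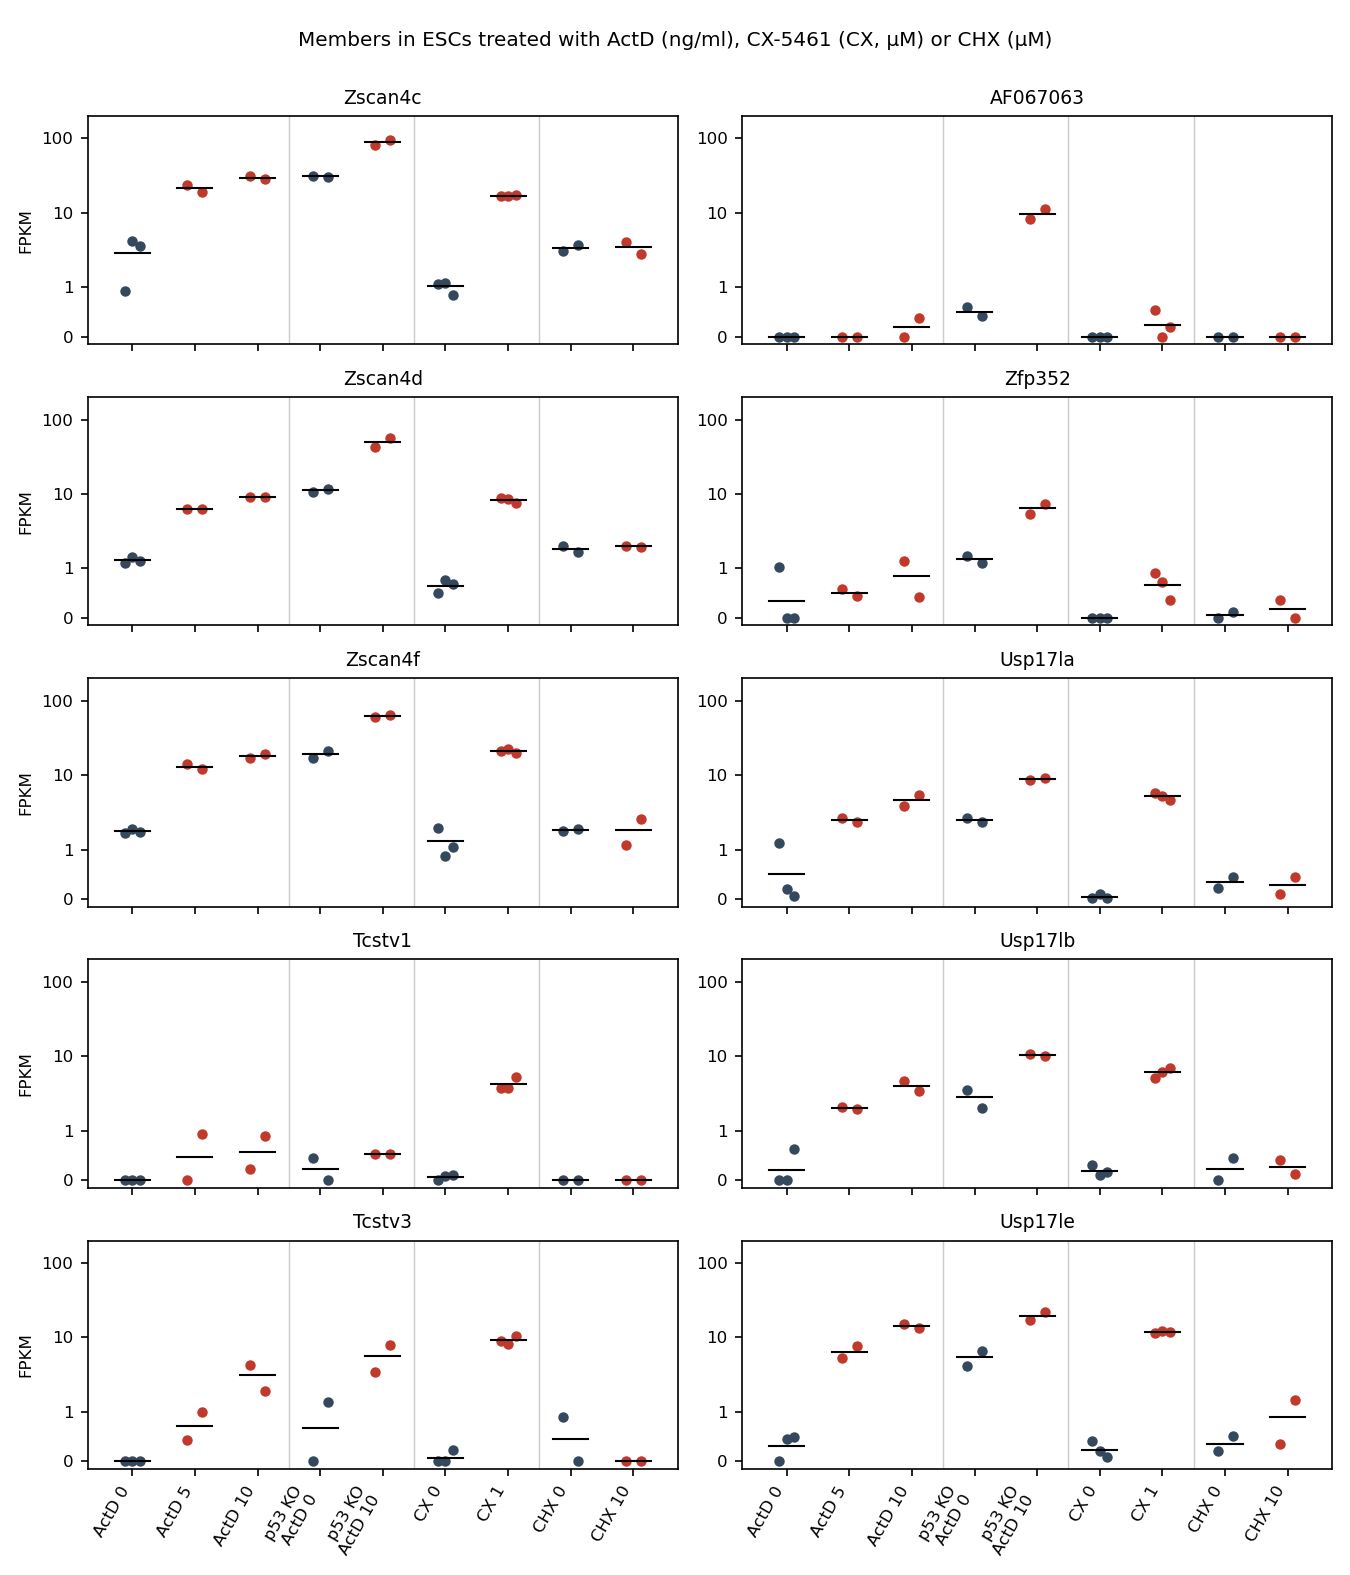
FPKM of each member in each library (vertical axis, linear below 1 and logarithmic above) for ActD in ESCs, ActD in p53 KO ESCs, CX-5461 and CHX; dark points are untreated and red points treated libraries, and bars are group means. Zscan4c rises from 0.846 to 1.13 FPKM without CX-5461 to 16.7 to 17.4 with it, while its CHX points overlap at 2.82 to 4.09.

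ActD in ESCs also raised the 3 Zscan4 and the 3 Usp17l members. At 5 ng/ml 6 of the 8 members tested rose (32.9% of all genes tested rose), and at 10 ng/ml 7 of 8 (36.4%). Both doses were compared with the same 3 untreated libraries, in which only the 3 Zscan4 genes would have passed the filter; the other 5 tested members passed through treated libraries, so their calls are no support in themselves. Zscan4c stood at 0.915, 4.22 and 3.63 FPKM untreated, at 23.4 and 19.1 at 5 ng/ml and at 31.1 and 28.2 at 10 ng/ml, with log2 changes of 2.62 (adjusted p = 0.0029) and 3.09 (adjusted p = 0.0011). Zscan4d went from 1.18, 1.41 and 1.27 FPKM to 6.37 and 6.24 and to 9.12 and 9.22 (log2 changes 1.68 and 2.16). Zscan4f went from 1.68, 1.91 and 1.72 FPKM to 14.0 and 11.9 and to 16.8 and 19.5 (log2 changes 2.33 and 2.79). For each of these 3 genes the untreated, 5 ng/ml and 10 ng/ml libraries formed separate, ascending ranges.

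Usp17le, at 0, 0.459 and 0.484 FPKM untreated, reached 5.24 and 7.65 at 5 ng/ml and 15.2 and 13.3 at 10 ng/ml (log2 changes 2.51 and 3.56, adjusted p = 0.00036 and 6.3e-05). Usp17lb went from 0, 0 and 0.635 FPKM to 2.10 and 1.96 and to 4.58 and 3.36 (log2 changes 1.36 and 2.07). Usp17la went from 1.23, 0.201 and 0.0705 FPKM to 2.65 and 2.33 and to 3.84 and 5.38 (log2 changes 1.29 and 1.97, adjusted p = 0.02 and 0.0031). Its call at 5 ng/ml was lost without either 5 ng/ml library or without 1 of the untreated ones (adjusted p up to 0.11). The untreated library with the highest Usp17la was also the one with the lowest Zscan4c and, at 48.5 FPKM against 12.6 and 14.4, the highest sum of 5 trophectoderm markers.

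Tcstv3 was at 0 in all 3 untreated libraries, at 0.440 and 0.987 FPKM at 5 ng/ml (adjusted p = 0.069) and at 4.31 and 1.92 at 10 ng/ml (log2 change 1.98, adjusted p = 0.0014). Tcstv1, also at 0 in the untreated libraries, stood at 0 and 0.927 FPKM at 5 ng/ml and at 0.225 and 0.897 at 10 ng/ml, and AF067063 was above 0 in a single library, at 0.386 FPKM with 10 ng/ml. Neither passed the filter. Zfp352 stood at 1.06, 0 and 0 FPKM untreated, at 0.580 and 0.434 at 5 ng/ml and at 1.27 and 0.427 at 10 ng/ml (log2 changes 0.24 and 0.50, adjusted p = 0.63 and 0.3). Its groups overlapped at both doses.

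The family sums rose in steps with dose. Zscan4 copies summed to 8.54 ± 3.30 FPKM untreated (SD, n = 3), 57.1 ± 6.03 at 5 ng/ml and 79.3 ± 2.59 at 10 ng/ml (n = 2 each). Tcstv copies summed to 0.326 ± 0.283, 4.03 ± 0.324 and 9.04 ± 1.63 FPKM, and Usp17l copies to 1.33 ± 0.479, 14.3 ± 0.917 and 30.3 ± 0.369. Between the doses, all 8 tested members were higher at 10 ng/ml, with log2 differences of 0.26 to 1.22, but limma called 0 of 8 (1.47% of all genes rose; 4 of the 8 had an unadjusted p under 0.05, as had 10.1% of all genes in that direction). With only these 2 groups in the fit 2 were called. No untreated library shared a lane number with a treated one in the column names, so the lane and the drug cannot be told apart, whereas all 6 libraries of the CX-5461 table carried lane 5.

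**Figure D2:**
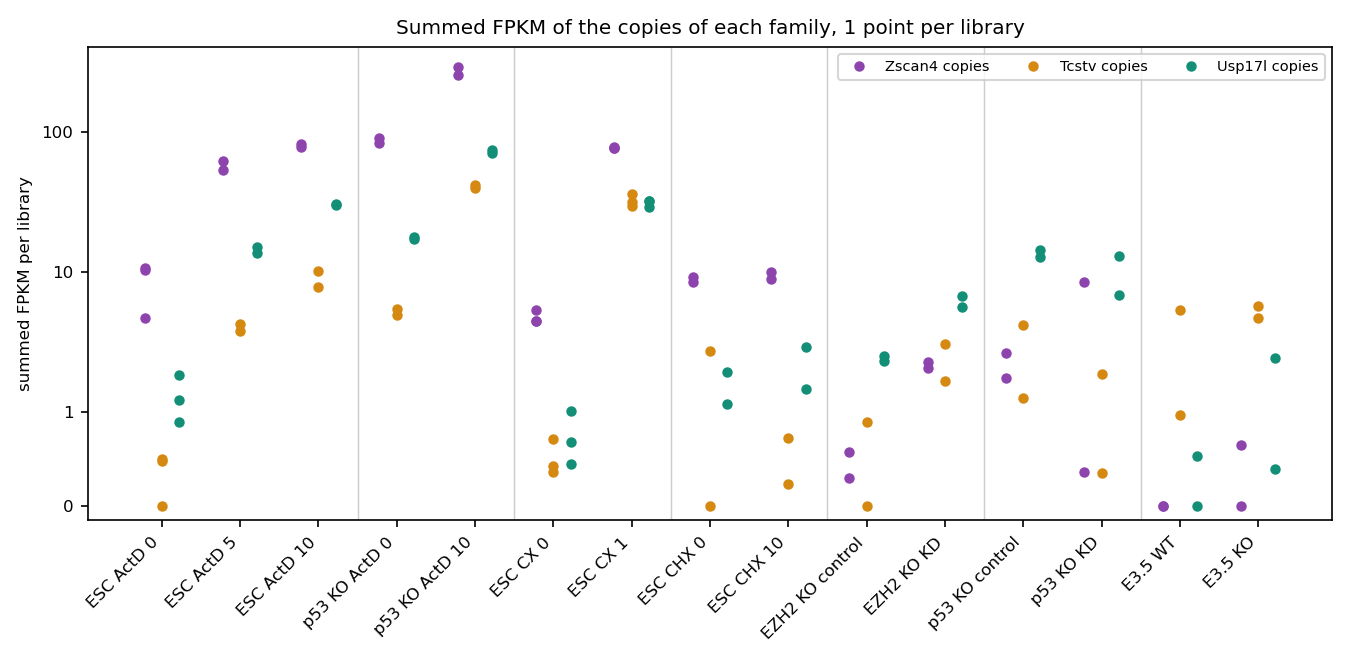
Summed FPKM of all listed Zscan4, Tcstv and Usp17l copies in each library (vertical axis), by table and group. With ActD the Zscan4 sum averages 8.54, 57.1 and 79.3 FPKM at 0, 5 and 10 ng/ml in ESCs, and 86.1 and 272 at 0 and 10 ng/ml in p53 KO ESCs.

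In the p53 KO ESCs used for ActD the Zscan4 genes stood above the untreated ESCs of the ActD, CX-5461 and CHX tables before any drug. In the p53 KO controls of the knockdown table they were lower, with Zscan4f at 0.592 and 0.624 FPKM. These tables were normalized separately. ActD at 10 ng/ml raised all 9 members tested (32.7% of all genes tested rose). Zscan4c stood at 31.5 and 30.4 FPKM untreated and at 81.7 and 95.3 treated (log2 change 1.48, SE 0.11, adjusted p = 0.0035). Zscan4d went from 10.8 and 11.7 to 43.3 and 56.3 FPKM (log2 change 2.04), and Zscan4f from 17.1 and 21.1 to 60.3 and 64.6 FPKM (log2 change 1.67). No tested member's treated and untreated libraries overlapped. Only Tcstv3 and AF067063 had passed the filter through the treated libraries alone, so the calls of these members are no support in themselves.

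AF067063 had the largest change in these cells, from 0.593 and 0.419 FPKM to 8.25 and 11.3 (log2 change 2.83, SE 0.20, adjusted p = 0.0035). Tcstv3 went from 0 and 1.35 FPKM to 3.45 and 7.96 (log2 change 2.04, adjusted p = 0.031; after rescaling each library by its median ratio, 1.85 and adjusted p = 0.067). Tcstv1, at 0.441 and 0 FPKM untreated and 0.535 and 0.537 treated, was not tested. Zfp352 rose from 1.48 and 1.20 to 5.38 and 7.44 FPKM (log2 change 1.65, adjusted p = 0.0062), a change not called in unmodified ESCs.

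The Usp17l genes rose by similar amounts. Usp17la went from 2.64 and 2.32 FPKM to 8.55 and 9.24 (log2 change 1.51, adjusted p = 0.0048), Usp17lb from 3.55 and 2.04 to 10.8 and 10.1 (1.62, adjusted p = 0.0077) and Usp17le from 4.19 and 6.62 to 16.9 and 21.9 (1.69, adjusted p = 0.0075). The family sums were 3.15-fold (Zscan4), 7.88-fold (Tcstv) and 4.11-fold (Usp17l) higher with ActD. Without either treated library limma called 0 of the 9 members (adjusted p up to 0.15) and 2 genes in all, against 4870 in the full table. All genes together shifted by a median of 0.35, which rescaling brought to 0.04, and 88.3% of called genes were higher as deposited and 49.2% rescaled; the other 8 members kept their call. Within lane 3, which held 1 untreated and both treated libraries, the log2 changes were 1.41 (Usp17le) to 2.91 (AF067063).

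The difference of the ActD effect between ESCs and p53 KO ESCs was called for 3 of 8 members, all larger in ESCs (13.8% of all genes were larger in ESCs). In ESCs only the 3 Zscan4 genes passed the filter without treated libraries, so the call of Usp17le is no support in itself. The difference was 1.12 (SE 0.18, adjusted p = 0.0013) for Zscan4f, 1.87 (SE 0.37, adjusted p = 0.0035) for Usp17le and 1.61 (SE 0.53, adjusted p = 0.038) for Zscan4c. The last was lost without any 1 of 6 libraries, namely both at 10 ng/ml in ESCs and all 4 of p53 KO ESCs (adjusted p up to 0.11). For Zscan4d it was 0.11 (SE 0.19, adjusted p = 0.68), for Tcstv3 -0.07 (SE 0.64), for Usp17la 0.46 (SE 0.43), for Usp17lb 0.45 (SE 0.39) and for Zfp352 -1.15 (SE 0.51, adjusted p = 0.11). Starting levels differed too, and treated Zscan4f stood at 16.8 and 19.5 FPKM in ESCs and at 60.3 and 64.6 in p53 KO ESCs, in separately normalized tables.

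**Figure D3:**
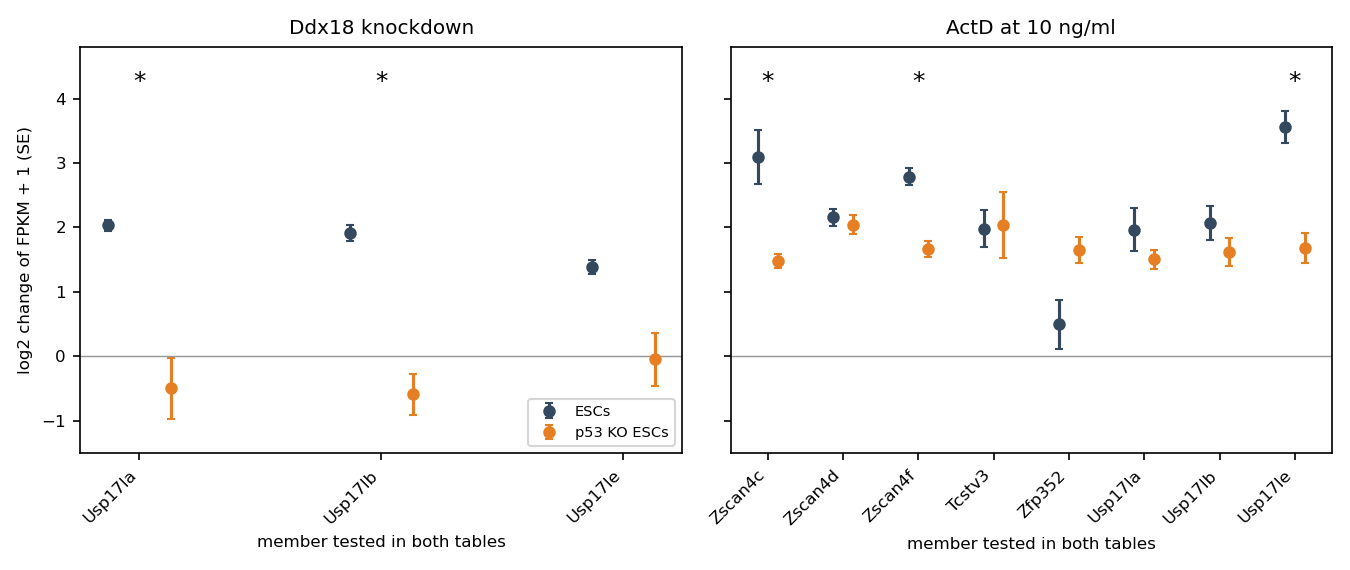
Log2 change ± SE of each tested member in ESCs and in p53 KO ESCs (vertical axis), for Ddx18 knockdown and for 10 ng/ml ActD; stars mark members whose difference between genotypes was called. For knockdown, Usp17la lies at 2.03 in ESCs and at -0.50 in p53 KO ESCs.

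Ddx18 knockdown in unmodified ESCs raised all 5 members of its table, but 55.2% of the listed genes rose and the table holds genes chosen on these same libraries, so the count is no independent evidence. Usp17la stood at 5.02 and 4.28 FPKM in control and 22.3 and 21.8 in knockdown libraries (log2 change 2.03, SE 0.08, adjusted p = 4.6e-06), a 4.75-fold difference. Usp17lb went from 5.66 and 6.51 FPKM to 28.97 and 22.5 (4.23-fold), and Usp17le from 9.76 and 10.6 to 31.9 and 25.0 (2.80-fold). Zscan4f, already at 50.04 and 48.9 FPKM in the controls, reached 86.6 and 103 (1.92-fold, log2 change 0.92, SE 0.08). Zfp352 was low, at 1.05 and 0.996 FPKM against 3.14 and 2.86 (2.92-fold). Control and knockdown libraries were apart for each of the 5.

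Of 11 other copies in these families 3 were listed. Usp17ld and Usp17lc rose (log2 changes 1.35 and 1.05), and BC147527, a gene of the Tcstv cluster, fell from 5.19 and 5.32 FPKM to 3.58 and 3.02 (log2 change -0.54, adjusted p = 0.00084). Within lane 7, which held both controls and 1 knockdown library, the members' changes were 0.80 for Zscan4f, 1.03 for Zfp352 and 1.56 to 2.08 for the Usp17l genes. The listed genes shifted by a median of 0.30 as deposited and 0.07 rescaled.

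**Figure D4:**
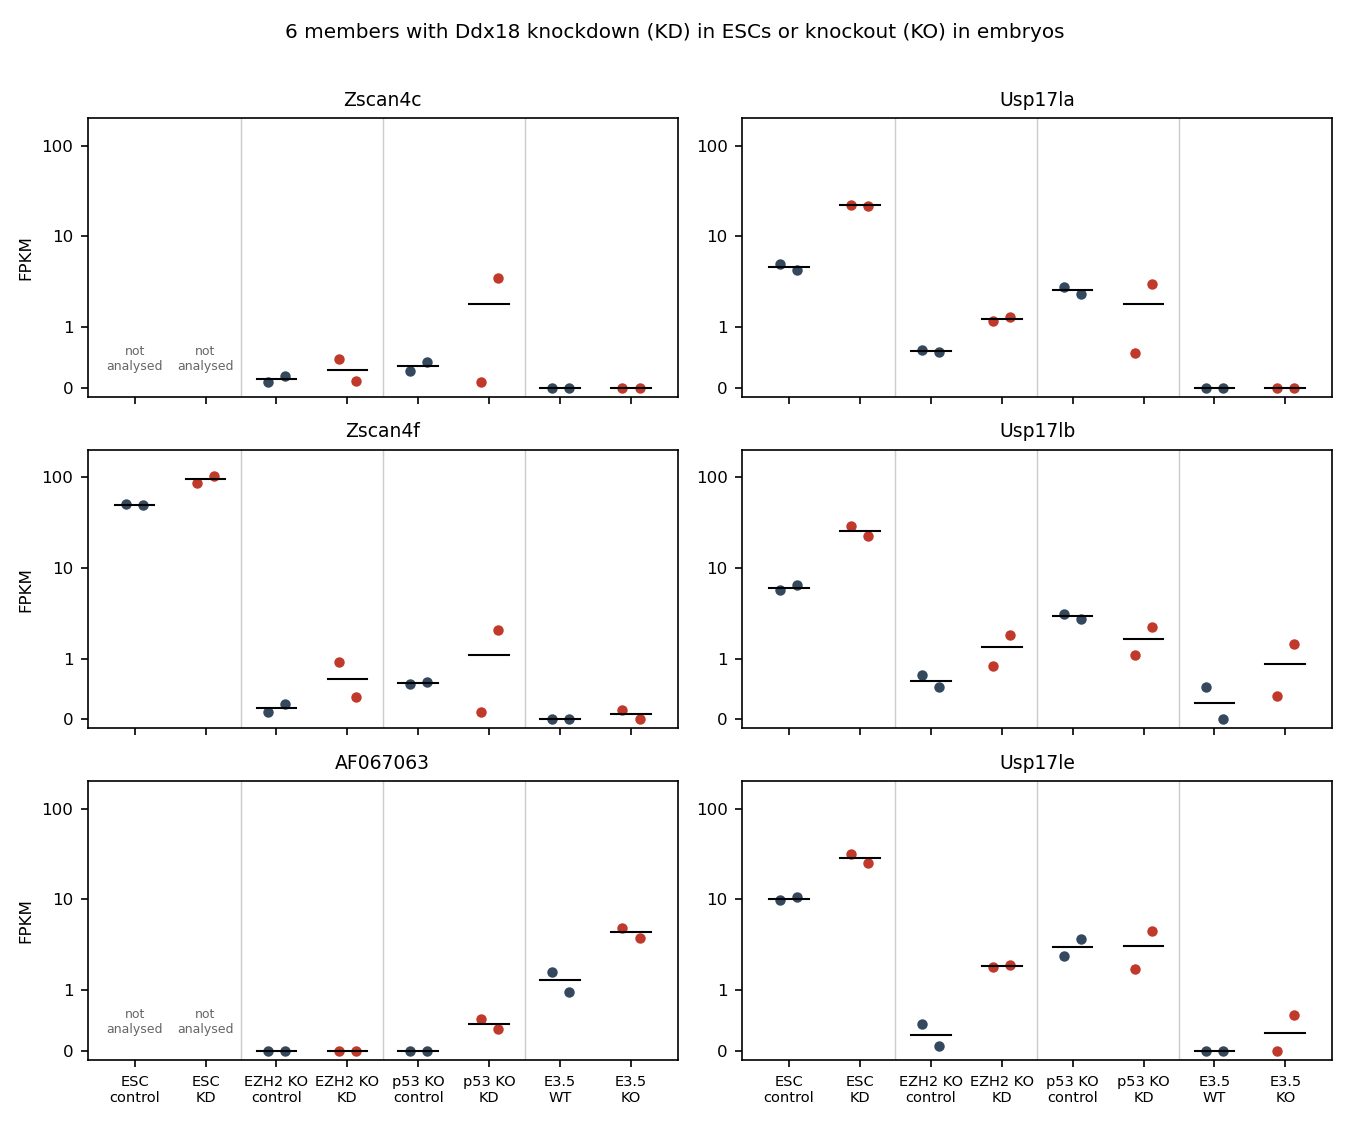
FPKM per library (vertical axis, linear below 1 and logarithmic above) of 6 members in the Ddx18 knockdown and knockout tables; dark points are controls and red points Ddx18-depleted libraries, and bars are group means. Usp17la lies at 4.28 to 5.02 FPKM in control and 21.8 to 22.3 in knockdown ESCs, and at 0.583 and 2.99 in the p53 KO knockdown libraries around controls of 2.31 and 2.79.

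In EZH2 KO ESCs, which lack the catalytic subunit of PRC2, the members were low with or without Ddx18. Only Usp17la and Usp17le passed the filter, through the knockdown libraries, and limma called 0 of these 2 (6.3% of all genes tested rose; 1 of the 2 had an unadjusted p under 0.05, as had 18.7% of all genes in that direction). Usp17le stood at 0.446 and 0.0784 FPKM in controls and at 1.80 and 1.90 with knockdown (log2 change 1.19, SE 0.28, adjusted p = 0.054). Usp17la stood at 0.621 and 0.592 FPKM in controls and at 1.17 and 1.31 with knockdown (log2 change 0.48, SE 0.25, adjusted p = 0.28). For both genes the knockdown libraries lay above the controls.

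The remaining members of these cells were below 1 FPKM except in 1 library. Zscan4c stood at 0.0908 and 0.191 FPKM in controls and 0.473 and 0.119 with knockdown, Zscan4d at 0 and 0.0181 against 0.371 and 0.656, and Zscan4f at 0.117 and 0.247 against 0.950 and 0.372. Usp17lb stood at 0.739 and 0.537 against 0.876 and 1.83. Tcstv3, AF067063 and Zfp352 were listed at 0 in all 4 libraries, and Tcstv1 in all but 1 control. Summed over copies, Zscan4 went from 0.438 ± 0.200 to 2.19 ± 0.148 FPKM (SD, n = 2 each, adjusted p = 0.046) and Usp17l from 2.42 ± 0.118 to 6.20 ± 0.772 (adjusted p = 0.027), both called, while Tcstv was not (from 0.452 ± 0.639 to 2.37 ± 0.969, adjusted p = 0.11). The Zscan4 and Tcstv sums passed the filter only through the knockdown libraries, so the Zscan4 call is no support in itself. With knockdown the Tcstv sum came only from AF067061 and BC147527, which are not members.

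In p53 KO ESCs limma called 0 of the 3 members tested after Ddx18 knockdown (2.63% of all genes rose; 0 of the 3 had an unadjusted p under 0.05, against 26% of all genes higher). The 2 knockdown libraries lay on either side of the controls for Zscan4c, Zscan4d, Zscan4f, Usp17la and Usp17le, and both below them for Usp17lb. Usp17la stood at 2.79 and 2.31 FPKM in controls and at 0.583 and 2.99 with knockdown (log2 change -0.50, SE 0.47, adjusted p = 0.51), Usp17lb at 3.10 and 2.75 against 1.10 and 2.23 (-0.59, adjusted p = 0.26) and Usp17le at 2.37 and 3.69 against 1.72 and 4.47 (-0.04, adjusted p = 0.95). Zscan4c stood at 0.287 and 0.434 FPKM in controls and 0.0974 and 3.53 with knockdown, Zscan4d at 0.518 and 0.684 against 0 and 1.13, and Zscan4f at 0.592 and 0.624 against 0.126 and 2.08. The same knockdown library was the high one for Zscan4c, Zscan4d, Zscan4f and the Usp17l genes, and for Duxf3, listed at 0.439 and 4.43 FPKM.

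The knockdown effect was larger in ESCs than in p53 KO ESCs by 2.53 (SE 0.55, adjusted p = 0.025) for Usp17la and by 2.50 (SE 0.33, adjusted p = 0.008) for Usp17lb, and by 1.43 for Usp17le (adjusted p = 0.077). That is 2 of 3 tested members, where 7.44% of the genes tested were larger in ESCs. Here and against EZH2 KO ESCs, the ESC table holds genes chosen on these same libraries. Those differences therefore only describe listed genes and are no independent evidence. Without any 1 of the 4 ESC libraries 0 of the 3 were called (adjusted p up to 0.11 for Usp17la and 0.064 for Usp17lb), and Usp17la was also lost without 1 of the p53 KO controls. Against EZH2 KO ESCs the effect was larger in ESCs for Usp17la (1.56, SE 0.17, adjusted p = 0.0034), 1 of 2 members tested (8.76% of genes), in all 8 fits that left out a library. For Usp17le that difference was 0.20 (SE 0.24, adjusted p = 0.58). In EZH2 KO ESCs both genes passed the filter only through the knockdown libraries, so the Usp17la call is no support in itself. Their EZH2 KO controls lay under 1 FPKM, where the log2(FPKM + 1) scale shrinks changes. Usp17le averaged 0.262 FPKM in those controls and 1.85 with knockdown. Between EZH2 KO and p53 KO ESCs limma called 0 of 2 (0.819% of genes were larger in EZH2 KO; 1 of the 2 had an unadjusted p under 0.05, as had 6.1% of genes in that direction), with differences of 0.97 for Usp17la and 1.23 for Usp17le.

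In E3.5 embryos most members were at or near 0. AF067063 was the only member tested, having passed through the knockout libraries, at 1.61 and 0.975 FPKM in wild-type and 4.90 and 3.77 in DDX18 KO embryos (log2 change 1.22, SE 0.38, adjusted p = 0.11; 0 of 1 called by limma, 1 at an unadjusted p under 0.05, against 0.633% and 4.88% of all genes higher). Its knockout libraries were both above the wild-type ones. Zscan4d and Zscan4f were above 0 in 1 knockout library each, at 0.489 and 0.163 FPKM, and in no wild-type library. Usp17lb stood at 0.532 and 0 FPKM in wild type and 0.391 and 1.45 in the knockout, Usp17le at 0.591 in 1 knockout library alone and Tcstv1 at 0.480 and 0 against 0.790 and 0. Zscan4c, Tcstv3, Zfp352 and Usp17la were listed at 0 in all 4 embryo libraries. Over all genes tested the median change was -0.31.

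CHX gave no called change in the members. Limma called 0 of 3 tested (33.2% of all genes rose; 0 of the 3 had an unadjusted p under 0.05, against 36.7% of all genes higher). Zscan4c stood at 3.09 and 3.72 FPKM untreated and 4.09 and 2.82 with CHX (log2 change 0.01, SE 0.20, adjusted p = 0.98), Zscan4d at 2.03 and 1.67 against 2.01 and 1.96 (0.07, SE 0.16) and Zscan4f at 1.76 and 1.89 against 1.15 and 2.55 (-0.04, SE 0.28). The libraries overlapped for each of them. Usp17le stood at 0.201 and 0.508 FPKM untreated and 0.352 and 1.45 with CHX, and Tcstv3 at 0.898 and 0 against 0 and 0.

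**Figure D5:**
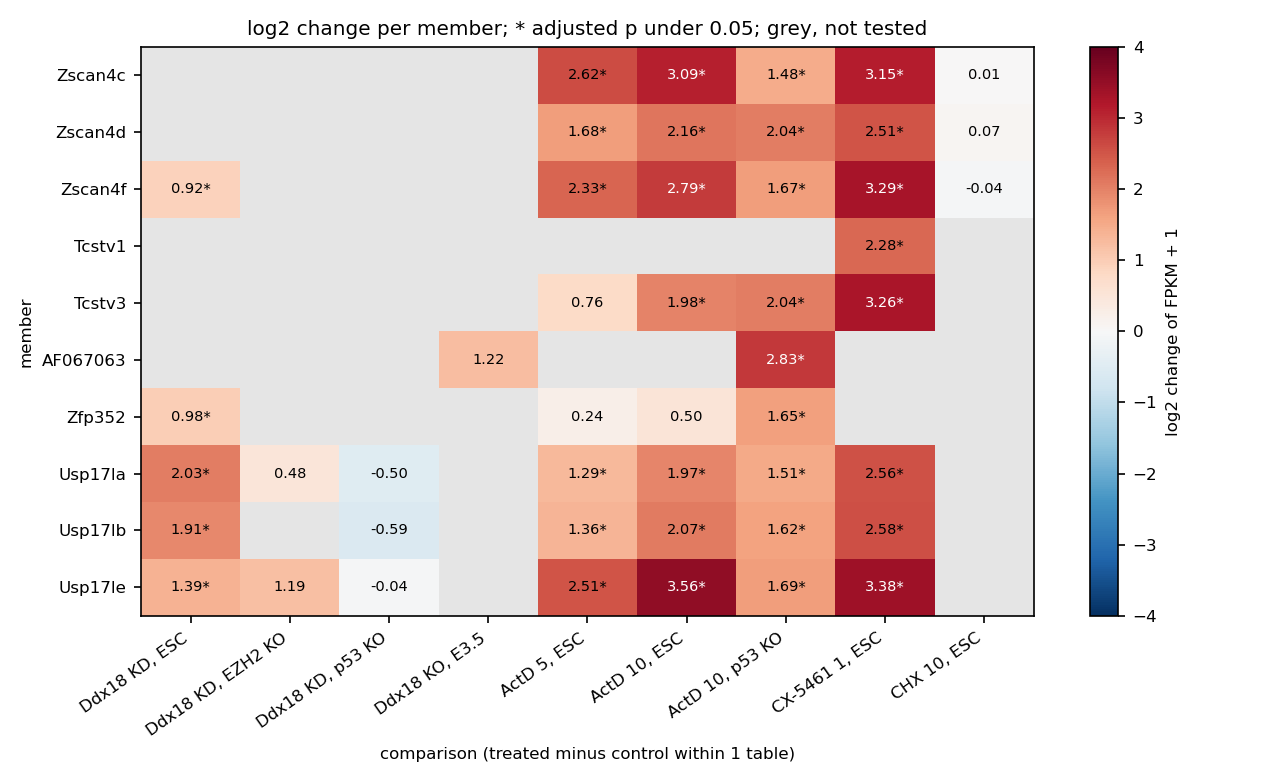
Log2 change of each member (rows) in each comparison (columns), with colour from lower to higher; stars mark an adjusted p under 0.05 and grey cells were not tested. CX-5461 holds the largest values, up to 3.38 for Usp17le apart from 3.56 for the same gene with 10 ng/ml ActD, and the CHX column lies between -0.04 and 0.07.

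The untreated level of Zscan4f differed widely between the separately normalized tables. Its libraries stood at 50.04 and 48.9 FPKM in the ESC knockdown table, at 1.68 to 1.91 in the ActD table, at 0.860 to 1.92 in the CX-5461 table and at 1.76 and 1.89 in the CHX table. Between p53 KO tables it was 17.1 and 21.1 in the ActD table and 0.592 and 0.624 in the knockdown table, and in EZH2 KO controls 0.117 and 0.247. The ranges of the ActD, CX-5461 and CHX controls overlapped, whereas the ESC knockdown controls and the p53 KO ActD controls lay far above them, so controls of the same genotype were not alike between tables.

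In the 19 libraries where the Zscan4 family sum passed 5 FPKM, Zscan4c held 20.7% to 45.5% of it (median 34.1%). It was the largest copy in 15 of them, and Zscan4f in the other 4. Those were the treated CX-5461 libraries and the only untreated one of that table whose sum passed 5 FPKM. In the remaining untreated CX-5461 libraries Zscan4e stood above Zscan4f, at 1.20 against 0.860 and 1.35 against 1.09 FPKM. Zscan4f held 12.8% to 35.8% (median 22.8%) and Zscan4d 9.23% to 22.4% (median 12.97%), with Zscan4b (median 15.9%) and Zscan4e (11.6%) making up the rest. Across 33 libraries of 7 tables, each gene centred within its table on the log2 scale, the Pearson correlation with the Zscan4c, Zscan4d and Zscan4f sum was 0.95 for Usp17le, 0.92 for Usp17la, 0.89 for Usp17lb, 0.81 for Tcstv3 and 0.77 for Tcstv1. It was lower for Zfp352 (0.54) and AF067063 (0.36), which were at 0 in many libraries. Of 14023 other genes the most alike were Zscan4e (0.96), Zscan4b (0.95), Heca (0.94), Gm21293 (0.93) and Ssh2 (0.93). These points share libraries, tables and treatments, and Zscan4e and Zscan4b can share reads with the members, so the values are descriptions.

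Other genes known from the 2-cell stage were taken from a list of 23. With CX-5461 12 of 12 tested rose (32.9% of all genes). With 10 ng/ml ActD 11 of 11 rose in ESCs (36.4%) and 17 of 18 in p53 KO ESCs (32.7%), and with 5 ng/ml 8 of 11 (32.9%). Genes low without treatment, such as Duxf3 with ActD, passed the filter through treated libraries, so the counts are no support in themselves. Gm8300 changed by 2.34 with CX-5461, by 2.69 with 10 ng/ml ActD and by 1.78 in p53 KO ESCs on the log2 scale. Knockdown raised 5 of 6 listed genes and lowered 1 in ESCs (55.2% of the genes there rose and 42.6% fell). In EZH2 KO ESCs it raised 2 of 3 (6.3% of all genes), Gm4340 by 1.26 and Tmem92 by 1.49. Limma called 0 of 7 in p53 KO ESCs and 0 of 8 in knockout embryos (2.63% and 0.633% of all genes rose). At an unadjusted limma p under 0.05 there were 0 and 3, against 26% and 4.88% of all genes higher. With CHX both tested genes rose (33.2% of all genes did), Duxf3 by 0.85 (adjusted p = 0.018) and Sp110 by 0.70 (adjusted p = 0.026), while the Zscan4 genes were not called. Duxf3 passed that filter only through the CHX-treated libraries.

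Duxf3, a copy of the Dux gene, rose with ActD in ESCs, from at most 0.134 FPKM to 0.696 and 1.14 at 5 ng/ml (log2 change 0.87, adjusted p = 0.011) and to 1.16 and 1.72 at 10 ng/ml (1.22, adjusted p = 0.0021). In p53 KO ESCs it rose from 0.556 and 0.644 to 1.88 and 2.76 FPKM (1.04, adjusted p = 0.019). With CX-5461 it was not tested, at 0 to 0.233 FPKM untreated and 0.967 to 1.398 treated. Its correlation with the Zscan4 sum over the same 33 libraries was 0.83. Duxf3 passed the filter for ActD only through treated libraries. Of 8 known activators, the others listed correlated at 0.20 (Nelfa), 0.09 (Dppa4), -0.11 (Dppa2), -0.16 (Trp53), -0.45 (Tbx3) and -0.75 (Prdm14). With 10 ng/ml ActD 1 of 7 activators tested rose and 2 fell in ESCs (36.4% and 20% of all genes). In p53 KO ESCs 5 of 7 rose and 2 fell (32.7% and 4.33%). Those 5 include Duxf3 and Trp53 itself, the gene named by the knockout (log2 change 0.91), whose RNA was still listed in these cells. With CX-5461 0 of 6 rose and 3 fell (32.9% and 28.9%).

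Known repressors of the 2-cell programme were taken from a list of 17. With 10 ng/ml ActD in ESCs 12 of 17 fell (20% of all genes tested fell), and with CX-5461 12 fell and 1 rose (28.9% fell). With Ddx18 knockdown in ESCs all 11 listed fell (42.6% fell, in a table of genes chosen on these libraries). With ActD in p53 KO ESCs 5 of 17 rose, near the 32.7% of all genes, and 0 fell (4.33% fell); their median change of 0.26 lay below that of all genes, 0.35. Trim28, a corepressor of retroelements and 2-cell genes, went from 413 ± 15.8 FPKM (SD, n = 3) to 98.7 ± 5.47 (n = 2) with 10 ng/ml ActD (log2 change -2.06, adjusted p = 4.7e-06). In p53 KO ESCs it stood at 383 ± 22.7 and 385 ± 4.41 (n = 2 each), a log2 change of 0.01, and the difference between genotypes was -2.07 (adjusted p = 1.8e-06). The Zscan4 genes rose in both genotypes, and the part of Trim28 in their changes was not tested. Over the same 33 libraries the 17 repressors correlated with the Zscan4 sum at -0.90 (Trim28) to 0.27 (Chaf1a). Dnmt1 (0.26) and Max (0.05) were also above 0, and the others were below it. Those values are descriptions. With CHX 6 of the 17 rose and 5 fell (33.2% and 19.8% of all genes).

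Sums of cell type markers moved beside the members with the polymerase I inhibitors and with Ddx18 knockdown in ESCs. The sum of 8 stem cell markers went from 2463 to 2775 FPKM untreated to 379 to 380 at 10 ng/ml ActD, and from 1442 to 1577 to 640 to 731 with CX-5461. In p53 KO ESCs it went from 1846 to 1939 to 1581 to 1705. The sum of 5 trophectoderm markers went from 12.6 to 48.5 FPKM to 546 to 570 with 10 ng/ml ActD, from 3.21 to 5.07 to 116 to 119 with CX-5461 and from 17.9 to 21.6 to 28.7 to 29.9 in p53 KO ESCs. With knockdown in ESCs the 3 trophectoderm markers listed went from 23.8 to 25.3 FPKM to 114 to 147.8, and the 3 stem cell markers listed from 1057 to 1077 FPKM to 726 to 757. Their part in the members' changes was not tested; in p53 KO ESCs, where the Zscan4 sum was 3.15-fold higher with ActD, the stem cell and trophectoderm sums took the ranges just given. The sum of 4 fibroblast markers there, of which 1 reached 1 FPKM, went from 14.7 to 18.3 FPKM to 44.6 to 47.4. The 6 oocyte markers summed to 7.09 to 14.0 FPKM untreated and 1.42 to 2.06 with 10 ng/ml ActD, with up to 5 of the 6 at 0, but went from 4.81 to 5.86 to 22.2 to 23.1 in p53 KO ESCs.

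Regions bound by tagged DDX18 gave another readout of these genes. The lists hold 880 and 939 regions for CLIP-seq, 635 and 741 for TAP-seq, a variant with a tandem purification, and 1076 for ChIP-seq. In each CLIP and TAP list, annotated on mm10 per the file headers, 0 regions were annotated to a member and 0 overlapped one. The ChIP-seq list states no build and was not matched to the members. In each CLIP list 1 region was annotated to the related Usp17ld.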

How the data were processed

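The authors deposited expression as FPKM, per the file headers. TopHat2 2.0.11 and CASAVA, and the builds mm9 and mm10 without a role for either, are named in the submitters' processing notes; the gene coordinates in the tables are those of mm10. The program that computed the FPKM and any scaling between libraries are not given in the sources used here. Mapped-read counts per library were deposited by the authors for 19 libraries. Bound regions carry a deposited score, and for ChIP-seq a fold enrichment over the control, a ratio computed by the authors with MACS, per the file headers; neither value was used. CLIP and TAP regions, annotated on mm10 per the file headers, were matched to members by annotated gene and by overlap; the ChIP-seq list names no build and was not matched. Of repeated symbols, the row with the higher mean was used.

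Each table was tested with limma 3.58.1 (R 4.3.3) on log2(FPKM + 1) with a variance trend, all groups of a table in 1 fit, two-sided. Genes had to reach 1 FPKM in a number of libraries equal to the smallest group, and adjustment (Benjamini-Hochberg, threshold 0.05) ran over all of them. A difference of effects between genotypes came from 1 fit of both tables, each group having its own mean. Copies of a family were also summed and tested as 1 gene. The script was tested on simulated data. All members and the listed relatives, 2-cell-stage genes, activators and repressors are the named genes, with Ddx18 and Trp53 as checks. The members and lists were chosen with earlier results of these data known. Lane numbers come from the column names, except for Ddx18 knockdown in ESCs. The column names there hold none, and the deposited list of sequencing runs was used. Alternatives tried were a pseudocount of 0.1 FPKM, no filter, a minimum of 5 FPKM, no variance trend, rescaling by median ratios, only the groups compared, collapsed copies, a replicate block and leaving out each library.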

Additional observations from a re-analysis of the deposited data

Results flagged for a closer look

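Effects differed between genotypes, by a test of the difference itself, for 6 results. The log2 change with Ddx18 knockdown was larger in ESCs than in p53 KO ESCs by 2.53 for Usp17la and by 2.50 for Usp17lb, and larger in ESCs than in EZH2 KO ESCs by 1.56 for Usp17la. The ESC knockdown table holds genes chosen on these same libraries, so these knockdown differences only describe listed genes. The log2 change with 10 ng/ml ActD was larger in ESCs than in p53 KO ESCs by 1.61 for Zscan4c, by 1.12 for Zscan4f and by 1.87 for Usp17le. Usp17le passed the filter in ESCs only through the ActD-treated libraries, so its difference is no support in itself.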

How the results depend on the processing

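The number of members called was within 1.5 times that reported in 146 of 166 alternatives, and the log2 changes of single members kept their direction and side of the threshold in 443 of 459 alternatives that kept all libraries. Collapsing copies left fewer units to call, with 3 against 6 for 5 ng/ml ActD, 3 against 7 for 10 ng/ml, 4 against 9 in p53 KO ESCs and 3 against 8 for CX-5461, and gave 2 against 0 for knockdown in EZH2 KO ESCs, where dropping the variance trend gave 1. A minimum of 5 FPKM left 4 members called for 10 ng/ml ActD and 0 tested for the knockdown effect against p53 KO and EZH2 KO ESCs (0 called, from 2 and 1); no filter gave 2 against EZH2 KO ESCs, and a pseudocount of 0.1 gave 1 against p53 KO ESCs. Fitting the 2 ActD doses alone called 2 members between them, from 0. Leaving out 1 library gave 0 to 9 for ActD in p53 KO ESCs, 0 to 3 for the knockdown effect in ESCs against p53 KO ESCs and 0 to 1 for EZH2 KO against p53 KO ESCs. The cause of the other shifts was not tested.

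Rescaling ended the call and turned the sign of Trp53 with knockdown in ESCs, from 0.19 (limma adjusted p = 0.0069) to -0.058, and of Max with ActD in p53 KO ESCs, from 0.36 (limma adjusted p = 0.03) to -0.0015. It turned the sign of these uncalled values: Trp53 with 5 ng/ml ActD to -0.077, Ddx18 with ActD in p53 KO ESCs to -0.20, Zscan4c and Zscan4d with CHX to -0.080 and -0.0024, and the ActD difference of Tcstv3 to 0.090. A pseudocount of 0.1 turned that difference to 1.09 and the knockdown difference of Usp17le against EZH2 KO ESCs to -1.18. Without 1 library, values ranged from -1.16 to 0.17 for Usp17la and -0.55 to 0.46 for Usp17le with knockdown in p53 KO ESCs, from -0.0010 to 0.13 for Trp53 with 5 ng/ml ActD, and from -0.077 to 0.59 for Zfp352 and -0.12 to 0.050 for Ddx18 between the doses. With CHX they ranged from -0.20 to 0.21 for Zscan4c, -0.021 to 0.16 for Zscan4d and -0.40 to 0.33 for Zscan4f. Among differences they ranged from -0.018 to 0.40 for Ddx18 against p53 KO ESCs, -0.013 to 0.41 for Usp17le against EZH2 KO ESCs, and -0.68 to 0.55 for Tcstv3 and -0.073 to 0.30 for Zscan4d with ActD.

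Rescaling moved the share of called genes that were higher from 80.5% to 23.8% for knockdown in p53 KO ESCs, from 74.3% to 58.9% in EZH2 KO ESCs and from 12.2% to 27.1% in embryos. Same-numbered libraries did not deviate together (correlations up to 0.045), so their numbers do not pair them; with a replicate block 5 members were called for knockdown in ESCs, 8 for CX-5461 and 0 in EZH2 KO ESCs, p53 KO ESCs and embryos, as without it. In p53 KO ESCs the correlation was -0.256, and a crossed pairing, added after seeing the data, called 0. No paired analysis was possible because the columns carry no replicate numbers for ActD in ESCs and p53 KO ESCs and for CHX. With 2 or 3 libraries a group, members under 1 FPKM could not be tested.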
